A study of Callithrix jacchus with 6 samples.

Results

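The hippocampus of the common marmoset (Callithrix jacchus), in aged animals per the series title, was examined for how its parenchymal microglia differed between sevoflurane and oxygen. The libraries were 3 labelled sevoflurane, 6 h and 3 labelled oxygen, 6 h, the control. Sevoflurane is an inhaled general anaesthetic. Per the labels, all 6 hippocampal suspensions were digested with collagenase, cryopreserved and thawed before droplet capture with 10x Genomics 3' v3.1 chemistry, which counts unique molecular identifiers (UMIs) per gene and cell barcode. The labels give no strain. Nothing in them says whether each replicate is its own animal, and p-values here measure only how far these libraries spread, which may be technical.

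Microglia were taken by a rule on raw UMIs. A barcode was kept when it held at least 2 of INPP5D, TBXAS1 and RUNX1, at least 3 UMIs of these genes in sum and at least 15 such UMIs per 10000 of its own, and held no UMI of MRC1, F13A1, LYVE1 or MOG. INPP5D encodes a lipid phosphatase of blood and immune cells, TBXAS1 encodes thromboxane synthase, and RUNX1 is a transcription factor of blood-forming and myeloid cells. The first 3 of the excluded genes mark border-associated macrophages, and MOG marks oligodendrocytes. The rule found 1438 of 46582 barcodes. Sevoflurane libraries 1 to 3 held 367, 217 and 135 of them, and oxygen libraries 1 to 3 held 199, 266 and 254.

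Microglia are the resident macrophages of the brain parenchyma. They depend on signalling through the receptor CSF1R, survey the tissue with motile processes, and respond to nucleotides, complement and glucocorticoids. In many cells glucocorticoid hormones act through the receptor NR3C1, which is held in a chaperone complex and moves to the nucleus once bound. FKBP5 is a co-chaperone of that complex. It lowers the affinity of the receptor for hormone and is itself induced by the receptor, which closes a short feedback loop. FKBP5 in microglia is named in the series title, so its direction in these libraries is not independent evidence.

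The libraries held 7103 to 8577 barcodes and between 41164947 and 47886816 UMIs each, and the summed UMIs of the microglia ranged from 335483 to 626372 per library. The median microglia barcode had 1536, 1709 and 2195 UMIs in the sevoflurane libraries, against 1712, 1852.5 and 2186 in the oxygen libraries. Between 13 and 27 barcode sequences were shared by any pair of libraries, and 23 microglia carried a sequence that occurred in more than 1 library. A doublet caller (scrublet) marked 44 microglia. Both sets were kept in the values below, and the count of changed genes was 6 with them, without the doublets and without the shared sequences. Over 4283 genes, which are not independent replicates, Pearson's r of log2 expression between a library's microglia and those of any other library was at most 0.873 for sevoflurane library 2 and 0.883 for sevoflurane library 3, against 0.927 to 0.942 for the other 4 libraries, so that both stood apart from the rest.

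All 3 rule genes were detected in 828 microglia and 2 of them in 610. The median microglia barcode held 7 UMIs of the rule genes, or 37.4 per 10000. Just inside the limits stood 127 barcodes with exactly 3 such UMIs and 105 with 15 to 20 per 10000. Just outside stood 40 barcodes with 2 genes but only 2 UMIs, and 72 with enough UMIs but 10 to 15 per 10000. A further 204 barcodes met the limits and were left out for an excluded gene, which was MOG in 155 and F13A1 in 49 of them. The microglia at 15 to 20 per 10000 had 368 CPM of CSF1R with sevoflurane and 399 CPM with oxygen, and 1340.4 CPM of FKBP5 with sevoflurane and 407 CPM with oxygen, summed over the libraries of a group. The barcodes outside at 10 to 15 per 10000 had 156 CPM of CSF1R with sevoflurane and 273 CPM with oxygen, and 872 CPM of FKBP5 with sevoflurane and 225 CPM with oxygen.

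The rule did not use the other markers of microglia, and their levels describe what it selected; because the members were chosen by related genes, no test is given. Levels are in CPM, the UMIs of a gene per 1000000 UMIs of the same barcodes in a library. CSF1R averaged 523 CPM in microglia and 6.06 CPM in all other barcodes (means of 6 libraries). PTPRC, the pan-leukocyte phosphatase CD45, averaged 631 CPM in microglia and 12.3 CPM in the other barcodes. DOCK8, an activator of small GTPases in immune cells, averaged 846 and 16.5 CPM in the same order, and IKZF1, a lymphoid and myeloid transcription factor, 277 and 5.92 CPM. SLC2A5, a fructose transporter of microglia, averaged 114 CPM in microglia and 0.895 CPM elsewhere.

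Some of the markers most used for this cell type were close to 0. P2RY12, the purinergic receptor of surveying microglia, averaged 7.13 CPM with 18 UMIs in all, and had none in oxygen library 1. The fractalkine receptor gene CX3CR1 averaged 7.31 CPM. The complement genes C1QA, C1QB and C1QC averaged between 6.50 and 12.7 CPM. Each of these was still higher on average in microglia than in the other barcodes. The barcodes therefore carried myeloid genes at high levels, and they are called microglia by the rule rather than by P2RY12 or CX3CR1. Markers of border-associated macrophages that the rule did not use were also higher in them. SIGLEC1 averaged 94.5 CPM in microglia and 1.28 CPM in the other barcodes. CD163 and CD163L1 were at 0. Of 4283 genes with at least 50 CPM in microglia, 209 were at least 10-fold over the other barcodes in every library. The rule genes INPP5D, TBXAS1 and RUNX1 are among these 209. Genes with a symbol that the rule did not use were ranked by the lowest of the 6 library ratios. They were led by HK2, a hexokinase, LOXHD1, GAB3, an adaptor protein gene, and LCP2, an adaptor of immune receptor signalling.

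**Figure D1:**
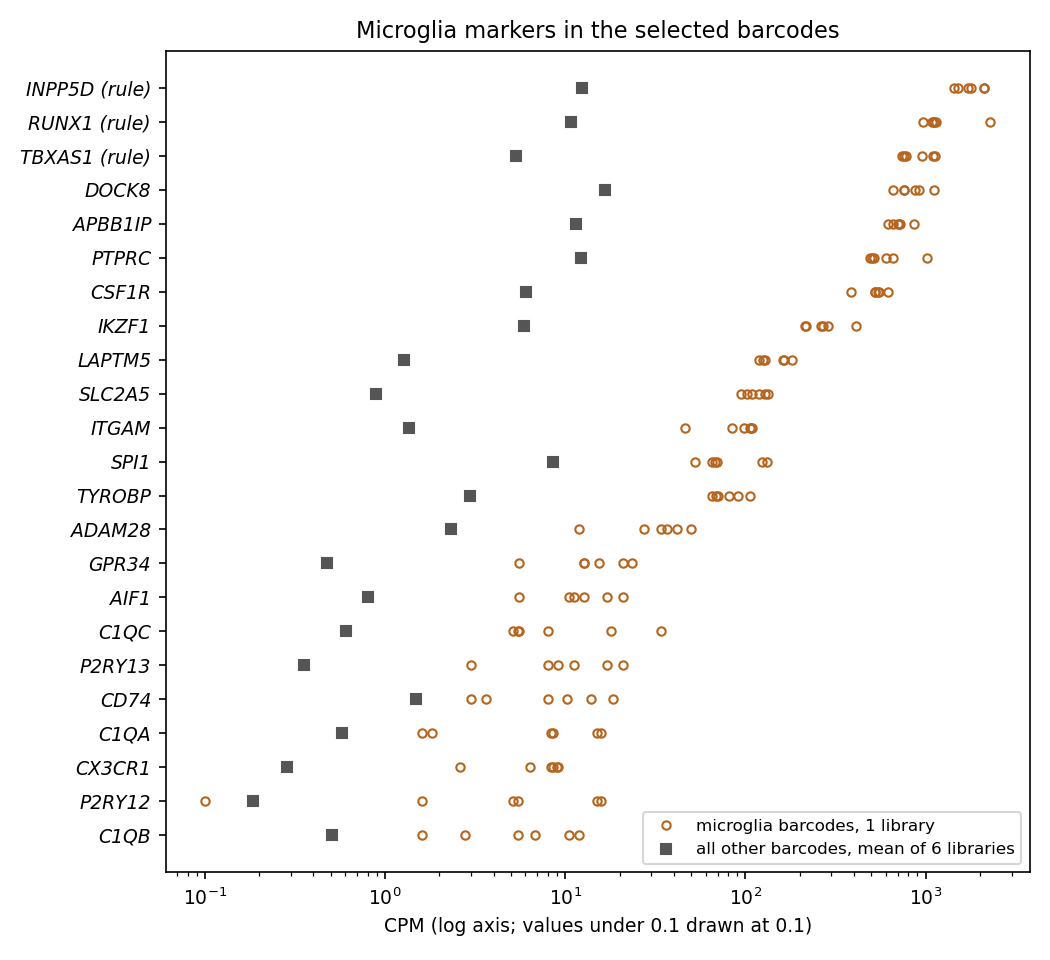
Level, in CPM on a log axis, of the microglia genes whose mean was higher in microglia than in the other barcodes. Each open circle is the microglia of 1 library, each grey square is the mean over 6 libraries of all other barcodes, and the 3 genes of the rule are marked. CSF1R, PTPRC and DOCK8 lie far to the right of their squares, and P2RY12 and CX3CR1 lie at 15.7 CPM or below.

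The share of barcodes that were microglia was 4.28%, 2.96% and 1.90% in the sevoflurane libraries, against 2.42%, 3.71% and 3.11% in the oxygen libraries. The groups overlapped, and the sevoflurane libraries held both the highest and the lowest share. This share is set by the levels of the rule genes. In microglia TBXAS1 was at log2 0.52 ± 0.17 and INPP5D at log2 -0.28. RUNX1 had 2290 CPM in sevoflurane library 2, against 972 to 1141 CPM in the other libraries. The share therefore does not measure the abundance of microglia apart from those levels. The mean was 3.05 ± 1.19% with sevoflurane and 3.08 ± 0.647% with oxygen (SD, n = 3 each; exact two-sided permutation p = 1.0, where the smallest that 3 against 3 libraries allows is 0.1). The Clopper-Pearson 95% intervals of single libraries, which cover counting error only, ran from 3.86% to 4.73% in sevoflurane library 1 and from 1.60% to 2.25% in sevoflurane library 3.

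FKBP5 (ENSCJAG00000015725) rose in microglia. It had 1668, 1649.8 and 2119 CPM in the sevoflurane libraries, against 349.9, 417 and 361 CPM in the oxygen libraries. Every sevoflurane library was far above every oxygen library, with sevoflurane library 3 the highest and a narrow spread among the oxygen libraries. The mean was 1812 ± 266 CPM with sevoflurane and 376 ± 35.8 CPM with oxygen (SD, n = 3 each), a 4.96-fold difference (log2 2.31 ± 0.19 SE, adjusted p = 0.00130 by edgeR's quasi-likelihood test with Benjamini-Hochberg adjustment over 7237 genes). Leaving out any 1 library gave log2 values between 2.16 and 2.38, all past the threshold; without sevoflurane library 2 it was 2.35 and without sevoflurane library 3 it was 2.16. FKBP5 was counted from 2954 UMIs in the microglia of the 6 libraries.

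The difference was spread over the microglia and did not sit in a few barcodes of high count. To compare barcodes of unequal depth, each was thinned to 1000 UMIs, which left out 33 sevoflurane and 7 oxygen barcodes. The expected share of microglia with an FKBP5 UMI was then 77.3%, 74.1% and 83.2% in the sevoflurane libraries, against 27.1%, 32.2% and 28.8% in the oxygen libraries. The groups did not overlap, and the means were 78.2 ± 4.58% and 29.4 ± 2.60% for sevoflurane and oxygen (SD, n = 3 each; exact two-sided permutation p = 0.1, the smallest possible). Without thinning, the means were 89.6 ± 5.15% with sevoflurane and 46.4 ± 4.27% with oxygen. In GABAergic neurons, where FKBP5 was lowest, the thinned share was 2.21 ± 1.74% with sevoflurane and 1.16 ± 0.647% with oxygen, and the microglial shares of both groups stood above it. The median depth of these neurons was 5616 to 8931 UMIs in the sevoflurane libraries and 5689 to 5956 in the oxygen libraries, above that of the microglia.

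More UMIs per barcode went with the larger share. At 1000 UMIs, 2 to 4 FKBP5 UMIs were expected in 42.8%, 38.3% and 48.8% of microglia in the sevoflurane libraries, against 4.95%, 7.51% and 6.76% in the oxygen libraries. A count of 5 or more was expected in 6.29%, 6.34% and 10.3% with sevoflurane, against 0.322%, 0.295% and 0.0362% with oxygen. The highest count in any 1 barcode before thinning was 28, in sevoflurane library 3, against 9 in the oxygen libraries.

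**Figure D2:**
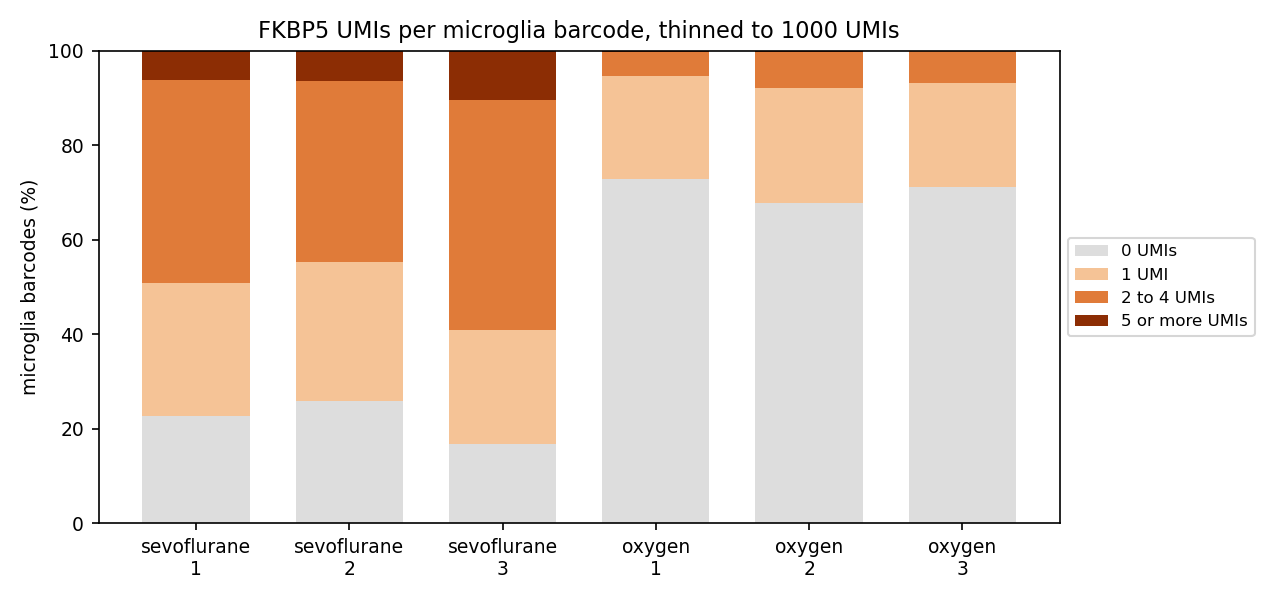
Share of microglia barcodes in percent by their number of FKBP5 UMIs, after thinning to 1000 UMIs, for each of the 6 libraries. The grey part, barcodes with no FKBP5 UMI, is the smaller part of each sevoflurane bar, where 74.1% to 83.2% held at least 1, and the larger part of each oxygen bar, where 27.1% to 32.2% did.

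The same separation was read after splitting each library's microglia at the median of their depth, and again at the median of their density of rule genes. Among the shallower barcodes FKBP5 was at 1844, 1647 and 2068 CPM with sevoflurane, against 326, 422 and 359.8 CPM with oxygen. Among the deeper barcodes it was at 1564, 1651 and 2148 CPM with sevoflurane, against 365, 413 and 362 CPM with oxygen. The barcodes richer in rule genes had 1703, 1519 and 2268 CPM with sevoflurane, against 342, 504 and 417 CPM with oxygen. Those poorer in rule genes had 1641, 1772 and 1996 CPM with sevoflurane, against 357, 339 and 313 CPM with oxygen. In each of the 4 subsets the groups did not overlap. The share of microglia with a UMI was also read for 5 identity genes, thinned in the same way. It averaged 38.9 ± 8.09% for CSF1R with sevoflurane and 40.2 ± 1.52% with oxygen (exact permutation p = 1.0), and 44.3 ± 9.68% for PTPRC with sevoflurane and 41.3 ± 3.52% with oxygen (exact permutation p = 0.8; SD, n = 3 each). For DOCK8 it was 58.9 ± 5.63% with sevoflurane and 52.0 ± 5.33% with oxygen (exact permutation p = 0.2). For APBB1IP, an adaptor of integrin activation, it was 49.0 ± 4.43% with sevoflurane and 44.3 ± 2.65% with oxygen (exact permutation p = 0.2), and for IKZF1 24.9 ± 6.38% with sevoflurane and 21.8 ± 2.40% with oxygen (exact permutation p = 0.4).

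FKBP5 was also read in other sets of barcodes, taken by their own marker genes. In border-associated macrophages, 39 barcodes in all, it was at 1515, 587 and 1427 CPM with sevoflurane, against 900.5, 261 and 609 CPM with oxygen. These groups overlapped, with 4 to 10 barcodes per library, and no expression fit was made for them. Their share with an FKBP5 UMI at 1000 UMIs was 56.6 ± 19.5% with sevoflurane and 45.1 ± 6.89% with oxygen (SD, n = 3 each; exact two-sided permutation p = 0.4). In endothelial cells it was at 254, 716 and 561 CPM with sevoflurane, against 131, 130.0 and 119.7 CPM with oxygen. In astrocytes it was at 144, 147 and 170.1 CPM with sevoflurane, against 87.8, 102 and 53.5 CPM with oxygen. In oligodendrocytes it was at 69.1, 113 and 101 CPM with sevoflurane, against 48.8, 42.3 and 45.9 CPM with oxygen. In each of these 3 sets every sevoflurane library was above every oxygen library. In GABAergic neurons the groups overlapped at low levels, with means of 20.1 ± 12.5 CPM for sevoflurane and 11.2 ± 8.42 CPM for oxygen (SD, n = 3 each). In order of the sevoflurane mean the levels ran from microglia through border-associated macrophages, endothelial cells, astrocytes and oligodendrocytes to GABAergic neurons; the library values of microglia and border-associated macrophages lay apart, those of border-associated macrophages and endothelial cells overlapped, and those of the remaining neighbours did not.

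The response to sevoflurane was set against that of 3 other classes by fitting, with limma, the difference of log2 CPM between microglia and the class within each library. The FKBP5 response was larger in microglia than in astrocytes by log2 1.30 ± 0.28 (95% interval 0.65 to 1.95, adjusted p = 0.00562 by limma, over the 3 classes). It was larger than in oligodendrocytes by log2 1.30 ± 0.32 (95% interval 0.56 to 2.04, adjusted p = 0.00571 by limma, over the 3 classes). Against endothelial cells the difference was log2 0.42 ± 0.47, with a 95% interval from -0.64 to 1.48 (adjusted p = 0.397 by limma, over the 3 classes), which holds no difference as well as a difference of more than 2-fold. When adjusted over all genes of each fit, FKBP5 did not pass in any of them, at adjusted p = 0.686, 0.610 and 0.985 for astrocytes, oligodendrocytes and endothelial cells. No gene did: limma called 0 of 10988, 10007 and 7436 genes, or 0.0% in each, while 645, 624 and 386 genes had an unadjusted p under 0.05. An edgeR interaction term called 6, 8 and 0 genes in the same comparisons.

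**Figure D3:**
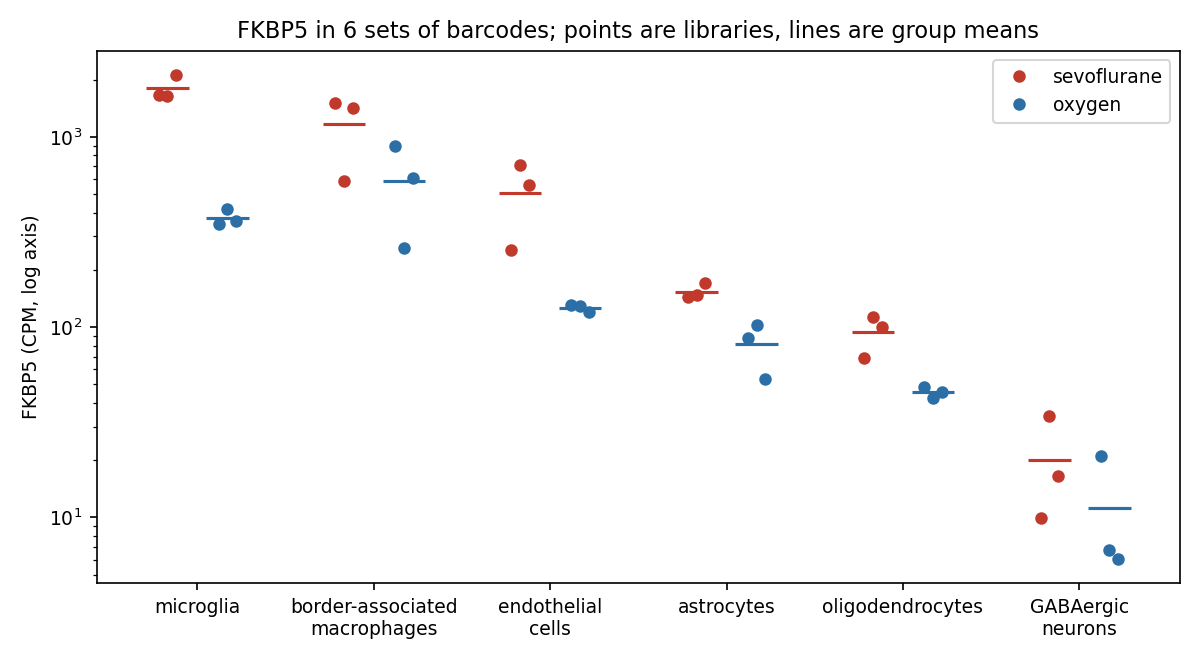
FKBP5 in CPM on a log axis in microglia and 5 other sets of barcodes. Each point is 1 library, sevoflurane in red on the left and oxygen in blue on the right of each set, and lines are group means. The widest gap is in microglia, at 1812 against 376 CPM, and the points overlap in border-associated macrophages and GABAergic neurons.

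Few other genes passed the test in microglia. Of 7237 genes tested, edgeR called 6 at an adjusted p under 0.05, or 0.0829%. The 4 higher genes (0.0553%) included FKBP5, MRTFA and NCAM1, and the 2 lower genes (0.0276%) were NAPEPLD and ENSCJAG00000066135, which has no symbol in the tables used. An unadjusted p under 0.05 was found for 480 genes, the called ones included. Without oxygen library 1, and without oxygen library 3, FKBP5 was the 1 gene called. Without oxygen library 2 there were 3 calls, and without sevoflurane library 1 there were 4. Without sevoflurane library 2 there were 9 and without sevoflurane library 3 there were 10, and the 6 genes were among them both times. DESeq2 called 20 genes, including these 6.

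NAPEPLD fell. It encodes the phospholipase D that releases N-acylethanolamines, a family that includes anandamide, from membrane lipids. It had 12.8, 10.5 and 8.94 CPM in the sevoflurane libraries, against 106, 78.3 and 106 CPM in the oxygen libraries. All sevoflurane libraries were low, and none came near an oxygen library. No microglia barcode with sevoflurane held more than 1 NAPEPLD UMI, so the sevoflurane values rest on few counts. The log2 change was -3.05 ± 0.32 (adjusted p = 0.00532 by edgeR), from 158 UMIs in all, and it was -3.03 without sevoflurane library 2 and -2.97 without sevoflurane library 3. NAPEPLD was at 14.1 ± 3.29 and 12.3 ± 2.19 CPM in astrocytes and at 33.2 ± 6.62 and 37.6 ± 3.44 CPM in oligodendrocytes, with sevoflurane and with oxygen in that order (SD, n = 3 each). In the fits of response differences it had the lowest p against both, at log2 -3.18 ± 0.31 for microglia minus astrocytes (adjusted p = 0.138) and -2.72 ± 0.30 for microglia minus oligodendrocytes (adjusted p = 0.222 by limma over all genes).

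MRTFA and NCAM1 rose. MRTFA, an actin-sensing coactivator of serum response factor, had 738, 805 and 1016 CPM in the sevoflurane libraries, against 314, 318 and 334 CPM in the oxygen libraries, with no overlap and a narrow oxygen group. Its log2 change was 1.45 ± 0.19 (adjusted p = 0.0224 by edgeR), 1.46 without sevoflurane library 2 and 1.28 without sevoflurane library 3. In the remaining barcodes of the suspension MRTFA was at 220.2 ± 17.5 CPM with sevoflurane and 209.6 ± 15.4 CPM with oxygen (SD, n = 3 each). NCAM1, a homophilic cell adhesion molecule, had 2023, 2141 and 1541 CPM in the sevoflurane libraries, against 749.7, 872 and 841 CPM in the oxygen libraries. The sevoflurane libraries were all higher, library 3 the least so, and the log2 change was 1.25 ± 0.18 (adjusted p = 0.0405 by edgeR). It was 1.14 without sevoflurane library 2 and 1.36 without sevoflurane library 3, the only 2 fits without 1 library that called NCAM1.

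NCAM1 is abundant in neurons and glia, so marker RNA of those cells was read in the same barcodes. In the remaining barcodes NCAM1 was at 766 ± 62.3 CPM with sevoflurane and 868 ± 23.7 CPM with oxygen, and in oligodendrocytes at 2194 ± 99.8 CPM with sevoflurane and 1909 ± 158 CPM with oxygen (SD, n = 3 each). The summed level of 15 neuron markers in microglia was 8701, 5645 and 14403 CPM with sevoflurane, against 10670.5, 8719 and 6650.5 CPM with oxygen, and that of the oligodendrocyte markers without the rule gene MOG was 747, 518 and 504 CPM with sevoflurane, against 628, 544 and 399 CPM with oxygen. Both sets of values overlapped between the groups (exact two-sided permutation p = 0.9 and p = 0.7), and none of the 15 neuron markers was at 0. The part of this RNA in the NCAM1 values was not tested.

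ENSCJAG00000066135 fell. It had 17.6, 26.1 and 8.94 CPM with sevoflurane, against 99.96, 115 and 111 CPM with oxygen (log2 -2.56 ± 0.32, adjusted p = 0.0207 by edgeR). The log2 change was -2.89 without sevoflurane library 2 and -2.34 without sevoflurane library 3, the only 2 fits without 1 library that called it. It was counted from 188 UMIs in all. In all other barcodes it averaged under 2 CPM in both groups, at 1.40 ± 0.952 CPM with sevoflurane and 1.68 ± 0.786 CPM with oxygen.

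**Figure D4:**
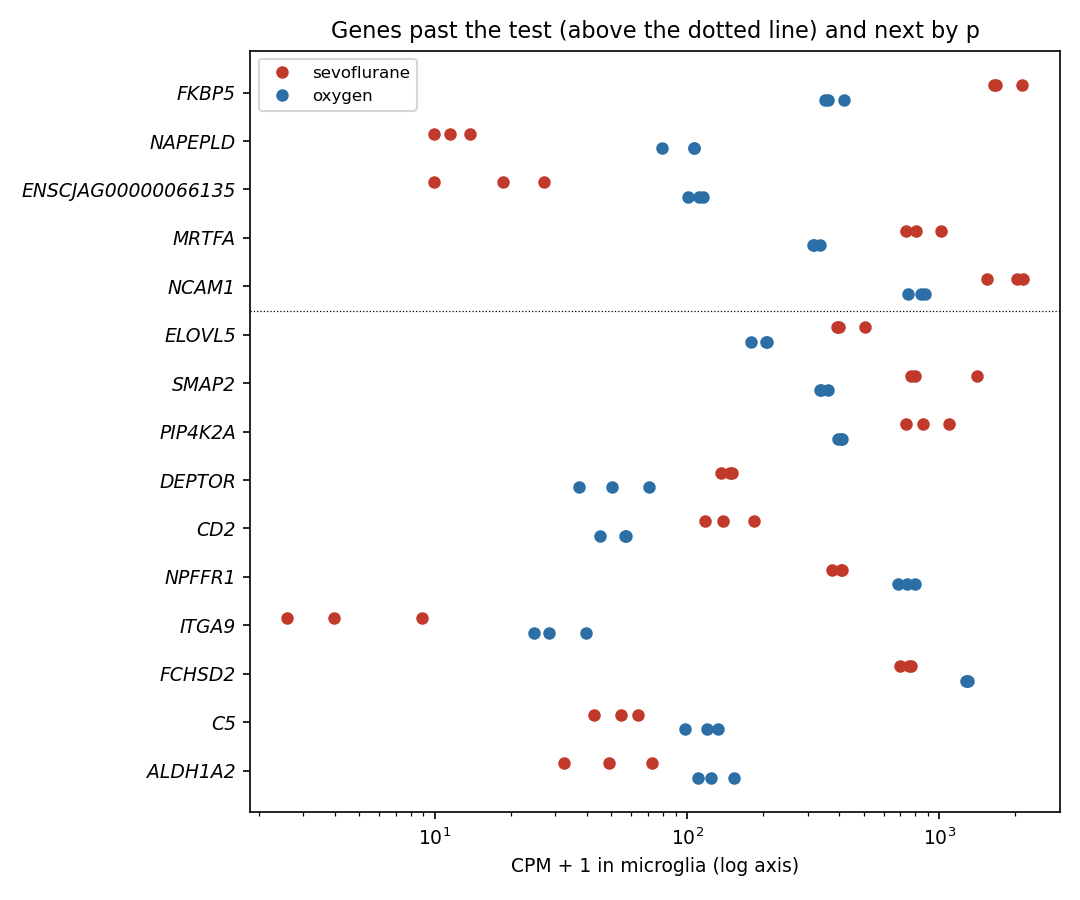
CPM + 1 in microglia on a log axis for 5 of the 6 genes past the test, above the dotted line, and for the 10 genes next by p below it. Red points are the 3 sevoflurane libraries and blue points the 3 oxygen libraries. In all 15 genes the groups are separated, which for the 10 uncalled genes was a condition of their choice. The values run from FKBP5 at 1649.8 to 2119 against 349.9 to 417 CPM to ITGA9 at 1.60 to 7.84 against 23.7 to 38.9 CPM.

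Separated groups were common across the transcriptome: 370 genes (5.11%) were higher and 534 (7.38%) lower in every sevoflurane library than in any oxygen library. The genes next by p that met this are given as values. ELOVL5, a fatty acid elongase, averaged 431 ± 63.5 CPM with sevoflurane and 196 ± 15.4 CPM with oxygen (log2 1.18 ± 0.18, adjusted p = 0.0565 by edgeR). DEPTOR, an inhibitor of the kinase mTOR, averaged 144 ± 7.07 CPM with sevoflurane and 51.7 ± 16.6 CPM with oxygen (log2 1.54 ± 0.26, adjusted p = 0.0726 by edgeR). SMAP2, a GTPase-activating protein of membrane traffic, averaged 990.2 ± 356 CPM with sevoflurane and 345 ± 14.3 CPM with oxygen, and sevoflurane library 3 reached 1401 CPM. Its log2 value was 1.69 without sevoflurane library 2 and 1.21 without sevoflurane library 3. PIP4K2A, a phosphoinositide kinase, averaged 896 ± 181 CPM with sevoflurane and 404 ± 8.84 CPM with oxygen (SD, n = 3 each).

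CD2, an adhesion receptor of T and NK cells, averaged 146 ± 34.0 CPM with sevoflurane and 52.1 ± 6.77 CPM with oxygen (log2 1.52 ± 0.25, adjusted p = 0.0726 by edgeR). The summed level of 11 T and NK cell markers in microglia was 119.7, 188 and 173 CPM with sevoflurane, against 106, 65.5 and 85.2 CPM with oxygen, with no overlap (exact two-sided permutation p = 0.1, the smallest possible). CD2 made up most of that sum in each of the 6 libraries. Without CD2, a reading added after its values were seen, the sum was 3.19, 5.23 and 35.8 CPM with sevoflurane, against 49.98, 9.10 and 40.9 CPM with oxygen, and the groups overlapped (exact two-sided permutation p = 0.2). The separation of the full sum was therefore that of CD2. The defining markers CD3D, CD3G, NKG7 and GNLY were at 0 in all microglia, CD3E had 0 UMIs with sevoflurane and 2 with oxygen, and CD247 had 6 with sevoflurane and 5 with oxygen. On the lower side NPFFR1, a neuropeptide FF receptor, averaged 397 ± 19.4 CPM with sevoflurane and 740.4 ± 57.9 CPM with oxygen (log2 -0.86 ± 0.17, adjusted p = 0.171 by edgeR). FCHSD2, a regulator of endocytosis and actin, averaged 742 ± 38.2 CPM with sevoflurane and 1285 ± 14.0 CPM with oxygen (log2 -0.75 ± 0.16, adjusted p = 0.247 by edgeR). C5, the complement component, averaged 52.6 ± 10.7 and 116 ± 17.2 CPM, and ALDH1A2, a retinoic acid synthase, 50.3 ± 20.2 and 128 ± 22.2 CPM, with sevoflurane and with oxygen in that order (adjusted p = 0.269 by edgeR for both).

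The glucocorticoid axis was read in 2 lists. Of 32 genes known as glucocorticoid targets in other cells, 11 had enough UMIs to be tested, 10 of these had a positive log2 change against 52.1% of all genes tested, and the median was 0.54 against 0.02 over all genes. FKBP5 was the 1 member called. DDIT4, an mTOR inhibitor induced by stress and glucocorticoids, had 78.2, 44.4 and 74.5 CPM with sevoflurane, against 27.8, 20.02 and 10.2 CPM with oxygen. Its groups did not overlap, and its log2 value was 1.87 ± 0.39 (adjusted p = 0.247 by edgeR). ZBTB16, a zinc finger transcription factor, had 92.6, 128 and 277 CPM with sevoflurane, against 108, 69.2 and 69.8 CPM with oxygen, so its groups overlapped and its mean rested on sevoflurane library 3 (log2 1.04 ± 0.40, and 0.45 without it). IRS2, an adaptor of insulin signalling, had 36.7, 65.4 and 98.4 CPM with sevoflurane, against 38.9, 29.1 and 32.4 CPM with oxygen. Its groups overlapped too, and its log2 value was 1.00 ± 0.39, and 0.60 without sevoflurane library 3. The widely used targets TSC22D3 (log2 0.39 ± 0.37) and SGK1 (log2 -0.04 ± 0.27) and the clock-linked KLF9 (log2 0.54 ± 0.42) did not pass either. PER1 had 5 UMIs with sevoflurane and 1 with oxygen, too few to test.

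The receptor and its partners were called in neither direction. Of 17 genes, 12 were tested and 6 had a positive value, with a median of -0.000410 on the log2 scale. The receptor gene NR3C1 had 302, 267 and 339.8 CPM with sevoflurane, against 253, 353 and 371 CPM with oxygen, overlapping groups with a log2 value of -0.07 ± 0.20. HSD11B1, the enzyme that regenerates active glucocorticoid, was at 31.8 ± 16.4 CPM with sevoflurane and 15.5 ± 5.61 CPM with oxygen (SD, n = 3 each; log2 0.97 ± 0.47, adjusted p = 0.803 by edgeR), and its log2 value was 0.52 without sevoflurane library 3. HSP90AA1, a chaperone of the complex, was at 608, 586 and 158 CPM with sevoflurane, against 511, 415 and 562 CPM with oxygen. Sevoflurane library 3 held the low value. Of 23 heat shock and chaperone genes, 16 were tested, 7 were positive and 0 were called.

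**Figure D5:**
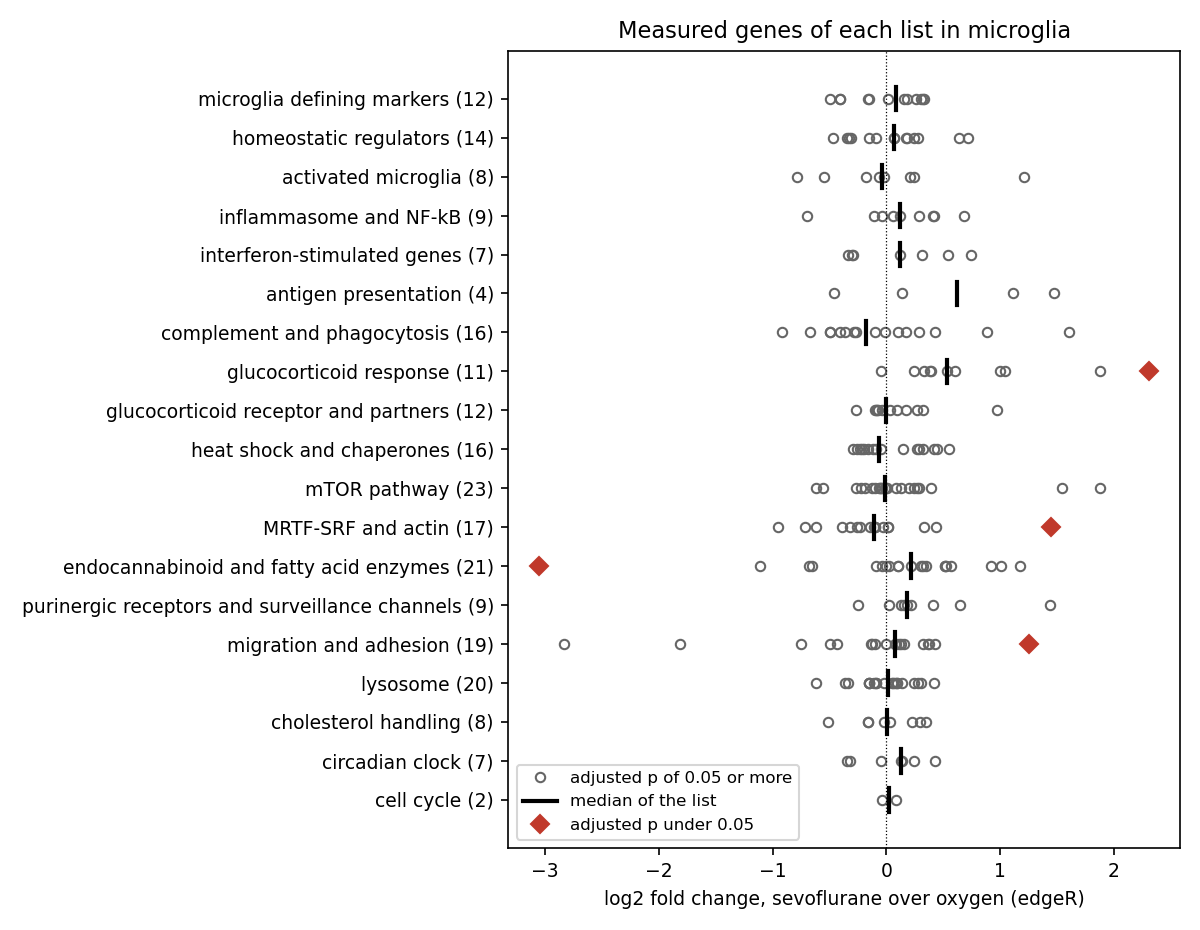
Log2 fold change, sevoflurane over oxygen, of every tested gene of 19 lists in microglia, with the number of tested genes in brackets. Open circles did not pass the test, red diamonds did, and black bars are list medians. The glucocorticoid response list has its median at 0.54 and all but 1 of its 11 genes above 0. The antigen presentation list, with 4 tested genes, has its median at 0.62 and 3 genes above 0.

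The markers that define the cell and its resting state were called in neither direction. Of 22 defining markers, 12 were tested, 7 were positive and the median was 0.08. CSF1R had 551, 384 and 617 CPM with sevoflurane, against 522, 522 and 542 CPM with oxygen, overlapping groups with a log2 value of 0.01 ± 0.20. LAPTM5, a lysosomal membrane protein of blood cells, was at 124 ± 5.13 CPM with sevoflurane and 169 ± 10.3 CPM with oxygen (log2 -0.41 ± 0.18). TYROBP, the signalling adaptor of TREM2, was at 68.2 ± 2.59 CPM with sevoflurane and 92.4 ± 12.6 CPM with oxygen (log2 -0.41 ± 0.22; SD, n = 3 each), and in both genes every sevoflurane library was the lower. Of 21 regulators of the homeostatic state, 14 were tested, 8 were positive, 0 were called and the median was 0.07. Among them TGFBR2, a receptor for the cytokine that keeps microglia quiescent, had 487, 575 and 420.3 CPM with sevoflurane, against 275, 362 and 288 CPM with oxygen. Its groups did not overlap (log2 0.72 ± 0.19, adjusted p = 0.388 by edgeR). Its ligand gene TGFB1 was at log2 -0.47 ± 0.22.

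Genes of activated microglia showed no common direction. Of 21, 8 were tested, 3 were positive, 0 were called and the median was -0.04. ITGAX, the integrin CD11c, had 294, 327 and 215 CPM with sevoflurane, against 505, 571 and 402 CPM with oxygen, with no overlap (log2 -0.78 ± 0.21, adjusted p = 0.388 by edgeR). The growth factor gene IGF1 had 579.5, 557 and 477 CPM with sevoflurane, against 819, 781 and 826 CPM with oxygen, also with no overlap (log2 -0.55 ± 0.16, adjusted p = 0.467 by edgeR). CLEC7A, the beta-glucan receptor dectin-1, stood on the other side at 48.1 ± 21.9 CPM with sevoflurane and 21.4 ± 8.29 CPM with oxygen (log2 1.21 ± 0.44, adjusted p = 0.565 by edgeR; SD, n = 3 each), and the log2 value was 0.79 without sevoflurane library 2.

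Inflammatory genes were sparse. Of 30 inflammasome and NF-kB genes, 9 could be tested, 6 were positive and 0 were called. NLRP3, the inflammasome sensor, was at 179 ± 17.9 CPM with sevoflurane and 137 ± 22.2 CPM with oxygen (log2 0.42 ± 0.20). NLRP1, another sensor, was at 93.3 ± 10.7 CPM with sevoflurane and 154 ± 38.8 CPM with oxygen (log2 -0.69 ± 0.23), and the NF-kB subunit gene REL was at log2 0.68 ± 0.27, and 0.40 without sevoflurane library 2. The cytokine transcripts were too low to test: IL1B had 15 UMIs with sevoflurane and 7 with oxygen, TNF 3 and 1, and IL6 3 and 2 in the same order, over all microglia of a group. Of 30 interferon-stimulated genes, 7 were tested and 0 were called, with RIGI, a sensor of viral RNA, at log2 0.74 ± 0.27. Of 18 antigen presentation genes, 4 were tested, 3 were positive, 0 were called and the median was 0.62. Their leading member CD80, a costimulatory ligand, was at 52.7, 207 and 41.7 CPM with sevoflurane, against 41.6, 38.2 and 30.7 CPM with oxygen, and sevoflurane library 2 set the size of its difference (log2 1.47 ± 0.55, and 0.42 without it).

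Complement and phagocytosis genes were mixed. Of 28, 16 were tested, 6 were positive, 0 were called and the median was -0.18. The 16 include the rule gene INPP5D, at log2 -0.28, a value the selection itself touches. FCGR1A, the high-affinity receptor for IgG, had 158, 301 and 241 CPM with sevoflurane, against 125, 131 and 131 CPM with oxygen (log2 0.88 ± 0.25, adjusted p = 0.403 by edgeR), and its log2 value was 0.62 without sevoflurane library 2. C5AR1, the receptor of the complement fragment C5a, was at 26.7 ± 7.99 CPM with sevoflurane and 49.3 ± 15.5 CPM with oxygen (log2 -0.92 ± 0.36). PLCG2, a phospholipase downstream of TREM2, was at 375 ± 64.6 CPM with sevoflurane and 544 ± 45.8 CPM with oxygen (log2 -0.50 ± 0.18). ELMO1, which drives engulfment with DOCK proteins, was at 3037 ± 203 CPM with sevoflurane and 2320 ± 177 CPM with oxygen (log2 0.43 ± 0.17; SD, n = 3 each).

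Pathway lists with a link to the leading genes were read next. Of 34 mTOR pathway genes, 23 were tested, 10 were positive, 0 were called and the median was -0.01. Besides DEPTOR and DDIT4, no tested member had a log2 value beyond 0.62 in either direction. SESN3, a stress-induced mTOR inhibitor, was at log2 -0.56 ± 0.18 and the kinase AKT1 at -0.62 ± 0.27. Of 28 genes of serum response factor and actin, 17 were tested and MRTFA was the 1 called, while 12 were negative and the median was -0.10. MYO1F, a myosin of immune cells, had 150.1, 154 and 179 CPM with sevoflurane, against 264, 277 and 271 CPM with oxygen, with no overlap (log2 -0.71 ± 0.17, adjusted p = 0.303 by edgeR). TPM4, a tropomyosin, was at log2 -0.96 ± 0.45.

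Of 32 endocannabinoid and fatty acid enzyme genes, 21 were tested and 14 were positive, with a median of 0.21 and NAPEPLD the 1 called. ACSL3, a fatty acyl-CoA synthetase, was at 60.3 ± 13.7 CPM with sevoflurane and 100.3 ± 9.32 CPM with oxygen (log2 -0.68 ± 0.24; SD, n = 3 each). The rule gene TBXAS1 was at log2 0.52 ± 0.17, a value the selection itself touches. Of 19 purinergic receptor and channel genes, 9 were tested, 8 were positive and 0 were called. ADORA3, an adenosine receptor, had 46.3, 78.4 and 50.7 CPM with sevoflurane, against 13.9, 29.1 and 20.4 CPM with oxygen, with no overlap (log2 1.44 ± 0.36, adjusted p = 0.353 by edgeR).

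Of 26 migration and adhesion genes, 19 were tested, 10 were positive and NCAM1 was the 1 called. ITGA9, an integrin subunit, had 1.60, 7.84 and 2.98 CPM with sevoflurane, against 38.9, 23.7 and 27.2 CPM with oxygen, from 48 UMIs in all (log2 -2.84 ± 0.57, adjusted p = 0.212 by edgeR). CYTH4, an exchange factor of Arf GTPases, had 11.2, 26.1 and 5.96 CPM with sevoflurane, against 52.8, 40.04 and 63.01 CPM with oxygen (log2 -1.81 ± 0.44, adjusted p = 0.313 by edgeR). In both genes every sevoflurane library was lower. Lysosome (20 tested of 26), cholesterol (8 of 21), circadian clock (7 of 18) and cell cycle genes (2 of 15) had 0 called and medians between 0.01 and 0.13. None of 21 immediate early genes had enough UMIs to be tested.

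Marker sums of other cell types in the microglia overlapped between the groups, except for that of T and NK cells, given above with CD2, and that of border-associated macrophages. The border-associated macrophage markers that the rule did not use had a sum of 393, 434 and 417 CPM with sevoflurane, against 489, 622 and 526 CPM with oxygen. These groups did not overlap (exact two-sided permutation p = 0.1, the smallest possible), the sum came from STAB1 and SIGLEC1, and CD163 and CD163L1 were at 0. Under the stricter rule of 6 rule-gene UMIs and 30 per 10000, the sums were 395, 467 and 507 CPM with sevoflurane, against 494, 651 and 545 CPM with oxygen, and the groups overlapped (exact two-sided permutation p = 0.2). Astrocyte markers summed to 797, 1109 and 509.7 CPM with sevoflurane, against 630.3, 1083 and 1225 CPM with oxygen, and the groups overlapped, as they did for neurons, oligodendrocytes, monocytes and neutrophils, oligodendrocyte precursors, endothelial, mural and ependymal cells. The part of the macrophage RNA in the results was not tested.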

How the data were processed

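For each of 6 libraries the deposited matrix holds raw counts of UMIs by gene and barcode, as whole numbers that were not normalised. Base calls were made with CASAVA 1.8 and counting with Cell Ranger, per the submitters' processing notes, with version 6.1.1 per the file headers. The genome build is not given in the sources used here, and no sequence table of the species was at hand. Of 29320 genes, 15187 had a symbol in the files, 1347 took one from a gene name table and 12786 had none.

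From these counts, barcodes were chosen by the rule given above, and their UMIs were summed per library, so that the library is the replicate. The members and all gene lists were chosen with earlier results of these data known. Genes were tested with edgeR 4.0.16 (filterByExpr, TMM, quasi-likelihood F test, Benjamini-Hochberg adjusted p under 0.05); standard errors were derived from log2 fold changes and F statistics. Responses of microglia and other classes were compared with limma 3.58.1 on within-library differences of log2 CPM with a prior count of 2. Exact permutation tests were two-sided over 20 arrangements. FKBP5 was always named, as were called genes, the 5 uncalled genes per direction with the smallest p, an average level of 4 or more in log2 CPM and groups that did not overlap, and up to 4 genes per list, of which those with an unadjusted p under 0.1 are given, besides a few reference genes chosen after their values were seen (NR3C1, HSP90AA1, TSC22D3, SGK1, KLF9, PER1, CSF1R and the cytokines). Doublets were scored with scrublet (scanpy 1.11.5), at the median of the 6 automatic thresholds.

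Other classes were taken with the same limits on their own marker genes and with no UMI of chosen genes of other classes. Because some markers carried no symbol in the gene table used, the marker sets of astrocytes, oligodendrocytes and endothelial cells were widened after the files were read. Border-associated macrophages had under 20 barcodes in every library, so endothelial cells took their place in the fits. The tests were also run on simulated counts, and the outcome is not given here. DESeq2 1.42.0 was run as an alternative. The sums of 335483 to 626372 UMIs per library limit the precision for low genes. Clopper-Pearson intervals cover counting error only, and the limma intervals of response differences rest on the spread between libraries. Some genes are not reported here.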

Additional observations from a re-analysis of the deposited data

Results flagged for a closer look

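The FKBP5 response to sevoflurane differed between microglia and 2 other classes in a test of the difference itself. It was larger in microglia than in astrocytes by 1.30 on the log2 scale (adjusted p = 0.00562 by limma, over 3 classes). It was larger than in oligodendrocytes by 1.30 on the log2 scale (adjusted p = 0.00571 by limma, over 3 classes). Leaving out 1 library gave 1.16 to 1.58 against astrocytes and 1.15 to 1.49 against oligodendrocytes. Neither passed when adjusted over all genes, at adjusted p = 0.686 and 0.610. The groups of 3 libraries were too small for a check of single outlying samples.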

How the results depend on the processing

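FKBP5 in microglia stayed past the threshold in 17 of 18 alternatives, at log2 2.16 to 2.38 over all 18. The exception was the fit with the replicate number as a block, at log2 2.30 and adjusted p = 0.0628. Libraries with the same number did not deviate together (r of -0.03, -0.06 and -0.22 over genes). These 3 values are too few to settle whether the numbers pair libraries, and the labels do not say. The block called 0 genes by edgeR against 6, with 356 genes at an unadjusted p under 0.05. The count of changed genes was 20 by DESeq2, 100 without a filter for low counts, 3 with limma on mean log values per barcode, 10 under the stricter rule (6 UMIs and 30 per 10000), 1 where all 3 rule genes were asked for, and 1 to 10 when 1 library was left out; it was 6 in each of the other alternatives. NAPEPLD passed in 14 of 18, MRTFA and ENSCJAG00000066135 in 12 each, and NCAM1 in 10. The difference in the share of barcodes that were microglia turned to 0.0291 percentage points without doublets and ran from -0.65 to 0.54 when 1 library was left out, on both sides of 0. The same holds for the summed marker RNA of neurons (-1507 to 2872 CPM) and oligodendrocytes (-12.7 to 118 CPM). Without doublets the astrocyte sum turned to 94.8 CPM, and with no exclusion genes the oligodendrocyte sum turned to -59.2 CPM. The T and NK cell sum turned to -18.6 CPM without CD2, the gene that made up most of it. The cause of the other turns was not tested. The FKBP5 response differences kept their side of the threshold in every alternative run, at 0.05 to 0.79 against endothelial cells when 1 library was left out. Against astrocytes, 1 gene was called with a prior count of 5. With 135 barcodes in the smallest library, sparse genes such as IL1B could not be tested.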

Other observations

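DESeq2 called 14 further genes higher in microglia after sevoflurane that edgeR did not call, 5 of them described above. Of the rest, PLA2G4A and CYSLTR1 belong to the arachidonic acid cascade. PLA2G4A, the cytosolic phospholipase that frees arachidonic acid from membranes, had 777, 1148 and 1183 CPM with sevoflurane, against 511, 399 and 623 CPM with oxygen. Its groups did not overlap (log2 1.06 ± 0.28, adjusted p = 0.0412 by DESeq2 and 0.269 by edgeR). CYSLTR1, a receptor for cysteinyl leukotrienes made from that acid, had 110.2, 141 and 259 CPM with sevoflurane, against 47.2, 58.2 and 69.8 CPM with oxygen (adjusted p = 0.0278 by DESeq2 and 0.269 by edgeR). Their groups were separated too.

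SLC15A1, a peptide transporter, had 309.7, 410.5 and 465 CPM with sevoflurane, against 94.4, 186 and 153 CPM with oxygen (adjusted p = 0.00200 by DESeq2 and 0.108 by edgeR). It was also among the genes most enriched in microglia over the remaining barcodes. SLC14A1, a urea transporter, had 233, 47.1 and 215 CPM with sevoflurane, against 41.6, 25.5 and 39.2 CPM with oxygen, so that sevoflurane library 2 lay close to the oxygen libraries. HDAC9, a histone deacetylase, had 702, 1514 and 879 CPM with sevoflurane, against 416, 566 and 422 CPM with oxygen, with sevoflurane library 2 the highest (adjusted p = 0.0495 by DESeq2 and 0.303 by edgeR). ATF6, a sensor of the unfolded protein response, averaged 587 ± 172 CPM with sevoflurane and 274 ± 52.4 CPM with oxygen (SD, n = 3 each; adjusted p = 0.0435 by DESeq2 and 0.269 by edgeR). All of these were picked with their values in view.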
